A study of Mus musculus with 4 samples.

Results

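The NEDD8 conjugation genes of B16F10 cells, a mouse melanoma line of C57BL/6 origin, were followed from control cells to cells with a knockdown of Lmna, which encodes the A-type lamins. The set held 10 gene symbols of the 24421 in the count matrix. They were Nedd8, both subunits of its activating enzyme (Nae1 and Uba3), both of its conjugating enzymes (Ube2m and Ube2f) and the 5 DCUN1D genes (Dcun1d1 to Dcun1d5). The set was chosen because Dcun1d5 was strongly lower in the knockdown, so the change of Dcun1d5 is described with no test. Cells of 2 libraries (shControl) carried a lentiviral control vector, listed in the study as empty, and cells of 2 libraries (shLmna) carried a vector for a short hairpin RNA against Lmna. Both groups were selected with puromycin, expanded as stable lines and profiled by bulk MARS-seq, which counts transcripts at their 3′ ends. Separate transductions or cultures are not stated for the replicates, so p-values measure only the spread between these libraries, which may be technical. In bulk RNA, fewer cells with a transcript and less transcript per cell cannot be told apart, and other differences between the lines cannot be told apart from the effect of the hairpin.

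NEDD8 is a small protein related to ubiquitin that is joined to lysines of other proteins, above all to the cullins. The heterodimer of NAE1 and UBA3, in which UBA3 holds the catalytic site, activates NEDD8 and hands it to UBE2M or UBE2F. A RING partner of the cullin then transfers it, helped by a DCUN1D protein that brings the conjugating enzyme and the cullin together. A cullin that carries NEDD8 is an active ubiquitin ligase scaffold, and the COP9 signalosome switches it off by removing NEDD8. The pathway is a drug target in cancer, since an inhibitor of the activating enzyme stops cullin ligases throughout the cell.

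The library totals were between 2494880 and 3808843 counts. Lmna gave 2826 and 2684 counts in shControl 1 and 2 and 331 and 480 in shLmna 1 and 2, and fell by 2.61 on the log2 scale (SE 0.142, adjusted p = 7.93e-06, edgeR's quasi-likelihood test with Benjamini-Hochberg adjustment over 9150 tested genes). All 9 melanocyte lineage markers were detected in the cells, led by Pmel, with summed levels between 20842 and 25579 CPM (counts scaled to a common library size, with TMM factors). The summed markers of leukocytes lay between 10.7 and 16.4 CPM, with 4 of 5 at 0 in every library, and those of endothelium, fibroblasts and epithelium were at or below 7.50 CPM, with Cdh5, Kdr, Dpt, Epcam, Krt5 and Krt14 at 0. The fibroblast markers were between 7.12 and 7.50 CPM in shControl and between 2.37 and 4.90 CPM in shLmna, and their part in the results below was not tested.

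Dcun1d5 and Uba3 were the members with large differences between the groups, and Nae1, the partner of Uba3 in the activating enzyme, is set beside them. The promoters of these 3 genes are shown as a description of the letters upstream of the start, and a link to the differences was not tested. RefSeq starts were found for all 10 members (build GRCm38.p6). Each run gives the 250 bases before a RefSeq start, 5′ to 3′ on the strand of the gene, at chr9:7184255-7184504 on the plus strand for Dcun1d5, at chr6:97205648-97205897 on the minus strand for Uba3 and at chr8:104534638-104534887 on the minus strand for Nae1. Capitals mark a GC box in either orientation.
Dcun1d5: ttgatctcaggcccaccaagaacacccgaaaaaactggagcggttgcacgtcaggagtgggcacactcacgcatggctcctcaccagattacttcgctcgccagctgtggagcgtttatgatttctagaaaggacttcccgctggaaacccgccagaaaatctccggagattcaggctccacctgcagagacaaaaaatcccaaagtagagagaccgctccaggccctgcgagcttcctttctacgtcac
Uba3: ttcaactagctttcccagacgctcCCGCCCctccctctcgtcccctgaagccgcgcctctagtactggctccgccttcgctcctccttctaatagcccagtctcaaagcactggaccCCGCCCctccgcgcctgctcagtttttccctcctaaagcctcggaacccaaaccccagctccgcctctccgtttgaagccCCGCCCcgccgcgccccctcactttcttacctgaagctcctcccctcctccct
Nae1: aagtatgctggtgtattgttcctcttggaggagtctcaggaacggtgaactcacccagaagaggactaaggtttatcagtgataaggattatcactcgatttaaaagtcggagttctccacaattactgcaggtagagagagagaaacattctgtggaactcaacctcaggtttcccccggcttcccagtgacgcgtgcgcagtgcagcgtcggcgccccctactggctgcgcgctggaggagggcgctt

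The letters of 7 motifs were searched on both strands of these windows. They were the TATA box (TATAAA), the CCAAT box (CCAAT), the GC box (GGGCGG), the E-box (CACGTG), the cAMP response element (TGACGTCA), the NRF1 core (GCATGCGC) and the YY1 motif (AAGATGGCG), and none of these overlapped another in the windows shown. The Dcun1d5 and Nae1 windows held 0 of the 7, while the Uba3 window held 3 GC boxes. A GC box was also found before RefSeq starts of Dcun1d1, Dcun1d2, Dcun1d3, Dcun1d4, Ube2f and Ube2m, and a window of Dcun1d4 also held 3. Over 32851 RefSeq promoter windows of the same length, 32.7% held a GC box, 33.8% a CCAAT box, 12.4% a TATA box, 6.02% an E-box, 2.26% the NRF1 core, 1.55% the cAMP response element and 0.606% the YY1 motif. A second RefSeq start of Dcun1d5, at position 7176590 of chromosome 9, held 1 CCAAT box. GC content was 54.0% in the Dcun1d5 window, 63.6% in that of Uba3 and 52.8% in that of Nae1, against a median of 52.4% over all windows. CpG pairs occurred at 0.728, 0.924 and 0.752 of the number that base composition gives for Dcun1d5, Uba3 and Nae1, against a median of 0.374. These matches describe letters and do not show binding.

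**Figure D1:**
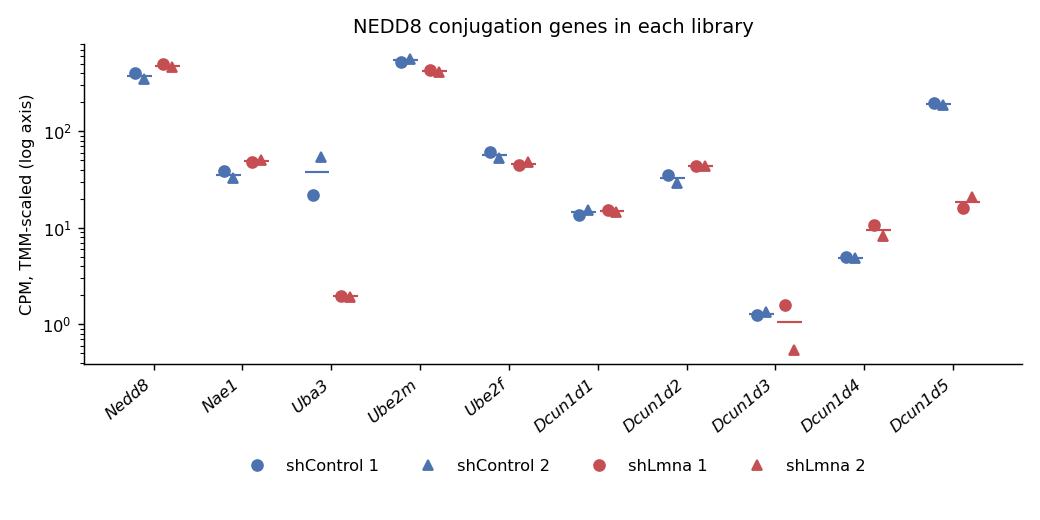
Level of each of the 10 NEDD8 conjugation genes in CPM, scaled by TMM, on a log axis. Circles and triangles are libraries 1 and 2, blue is shControl, red is shLmna, and short lines are group means; Dcun1d5 and Uba3 lie far lower in shLmna, and the group means of the other members differ by at most 1.93 times.

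Of the 10 members, 9 passed the filter on low counts, and Dcun1d3 did not. Among the 8 tested members other than Dcun1d5, 1 gene (Uba3) was lower at an adjusted p under 0.05 and 0 were higher, beside 9.74% and 5.48% of all tested genes. Of these 8 members, 6 had an unadjusted p under 0.05, beside 2750 of 9150 genes. Both shLmna libraries lay below both shControl libraries for 3 of the 8 (Uba3, Ube2m and Ube2f) and above them for 4 (Nedd8, Nae1, Dcun1d2 and Dcun1d4), beside 30.6% and 29.5% of all tested genes. The median log2 fold change of the 8 was 0.20, and that of all tested genes was -0.00107. Apart from Uba3, the tested members gave no difference that passed, and their values lay in both directions. The values are given by role.

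Nedd8 encodes the modifier itself and lies on chromosome 14 (55662263 to 55672124, minus strand, GRCm38). The gene was counted 1308 and 1287 times in shControl 1 and 2, and 1249 and 1702 times in shLmna 1 and 2. On the CPM scale these are 405 and 345 in shControl (375 ± 42.8, SD, n = 2) and 494 and 464 in shLmna (479 ± 21.4, SD, n = 2). Both shLmna libraries were above both shControl libraries, but the difference did not pass the test, with a log2 fold change of 0.35 (SE 0.129, 95% interval 0.07 to 0.64, edgeR adjusted p = 0.0979). It passed in 3 of 14 alternatives, among them the fit without shControl 1 (0.48) and limma on the batch-corrected log2 values (adjusted p = 0.0108). The limma p-value takes no account of the batch correction.

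Within the activating enzyme, the catalytic subunit Uba3 fell while its partner Nae1 gave higher values. Uba3 lies on chromosome 6 (97183670 to 97205647, minus strand) and had 70 and 203 counts in shControl 1 and 2 and 5 and 7 in shLmna 1 and 2. Its levels were 21.7 and 54.3 CPM in shControl (38.0 ± 23.1, SD, n = 2) and 1.98 and 1.91 CPM in shLmna (1.94 ± 0.0498, SD, n = 2). The groups were far apart, although the shControl libraries differed from each other by a larger factor than for any other member. Uba3 fell by 4.28 on the log2 scale (SE 0.524, 95% interval -5.45 to -3.11, edgeR adjusted p = 0.000566), which also passed the 3 limits of the study, as 5.88% of tested genes did in this direction and 1.76% in the other. Of all tested genes, 127 had a lower log2 fold change. With 12 counts in shLmna against 273 in shControl, the shLmna level was 4.94% of that in shControl, with a 95% interval of 2.52% to 8.78% from counting error alone. Without shControl 2, where Uba3 was highest, the log2 fold change was -3.46.

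Nae1, the regulatory subunit, lies on chromosome 8 (104511028 to 104534637, minus strand). It had 124 and 122 counts in shControl 1 and 2 and 123 and 186 in shLmna 1 and 2. The levels were 38.4 and 32.7 CPM in shControl (35.5 ± 4.06, SD, n = 2) and 48.6 and 50.7 CPM in shLmna (49.7 ± 1.44, SD, n = 2). The groups did not overlap, and the log2 fold change of 0.49 did not pass the test (SE 0.171, 95% interval 0.10 to 0.87, edgeR adjusted p = 0.0881), although it did in 3 of 14 alternatives, among them the fit without shControl 1 (0.61, edgeR adjusted p = 0.0381) and limma on the batch-corrected values (adjusted p = 0.0119). For each count of Uba3 there were 1.77 and 0.601 counts of Nae1 in shControl 1 and 2, and 24.6 and 26.6 in shLmna 1 and 2. Uba3 thus gave 36.1% and 62.5% of the counts of the pair in shControl and 3.91% and 3.63% in shLmna. Both genes were counted over the same length of 3′ end, but the GC content of that end was 30.0% for Uba3 and 38.3% for Nae1. The part of GC content in the ratio was not tested.

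The conjugating enzymes both gave lower values in shLmna, by amounts that did not pass the test. Ube2m, which serves most cullins, lies on chromosome 7 (13035120 to 13038275, minus strand) and had 1680 and 2120 counts in shControl 1 and 2 and 1083 and 1511 in shLmna 1 and 2. The levels were 520 and 568 CPM in shControl (544 ± 33.4, SD, n = 2) and 428 and 412 CPM in shLmna (420 ± 11.8, SD, n = 2). The groups did not overlap, and the log2 fold change was -0.37 (SE 0.119, 95% interval -0.64 to -0.11, edgeR adjusted p = 0.0649), which passed in 5 of 14 alternatives. They included DESeq2 (adjusted p = 0.0453), no filter on low counts (edgeR adjusted p = 0.0426), limma on the batch-corrected values (adjusted p = 0.0140) and the fit without shControl 1 (-0.43, edgeR adjusted p = 0.0190). Ube2f, which serves CUL5, lies on chromosome 1 (91250304 to 91290337, plus strand) and had 195 and 199 counts in shControl, against 113 and 175 in shLmna. Its levels were 60.4 and 53.3 CPM in shControl (56.8 ± 5.04, SD, n = 2) and 44.7 and 47.7 CPM in shLmna (46.2 ± 2.11, SD, n = 2). The log2 fold change of Ube2f was -0.29 (SE 0.157, 95% interval -0.65 to 0.06, edgeR adjusted p = 0.243). The Ube2f value is uncertain, since 32.4% of the 31-base stretches in its counted end also occur in pseudogenes such as Gm7099 and Gm5434; the same share was 2.27% for Ube2m and 0 for the other members. The ratio of Ube2m to Ube2f counts was 8.62 and 10.7 in shControl and 9.58 and 8.63 in shLmna, so the libraries of the groups overlapped.

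The DCUN1D proteins help the last transfer to the cullin. Dcun1d5, which encodes a nuclear member of the family, lies on chromosome 9 (7184520 to 7208205, plus strand, 8 exons) and had 641 and 697 counts in shControl 1 and 2 and 41 and 77 in shLmna 1 and 2. The levels were 198.5 and 186.6 CPM in shControl (192.6 ± 8.44, SD, n = 2) and 16.2 and 21.0 CPM in shLmna (18.6 ± 3.37, SD, n = 2). The shLmna mean was lower by 90.3%, and the log2 fold change was -3.35 (SE 0.163, 95% interval -3.71 to -2.98), with 199 of 9150 genes lower. These values chose the set and are given as a description.

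The other DCUN1D genes did not share this difference. Dcun1d2, on chromosome 8 (13255963 to 13288131, minus strand), had 115 and 110 counts in shControl, against 111 and 162 in shLmna, or 35.6 and 29.5 CPM against 43.9 and 44.1 CPM. Its groups did not overlap, and its log2 fold change was 0.44 (SE 0.181, 95% interval 0.03 to 0.84, edgeR adjusted p = 0.136). Dcun1d4, on chromosome 5 (73481000 to 73560794, plus strand), had 16 and 18 counts in shControl, against 27 and 30 in shLmna, or 4.96 and 4.82 CPM against 10.7 and 8.17 CPM. Its log2 fold change of 0.93 was the largest among the higher members (SE 0.344, 95% interval 0.16 to 1.70), but at this depth it did not pass the test (edgeR adjusted p = 0.103).

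Dcun1d1, the best studied gene of the family and one that is amplified in some carcinomas, lies on chromosome 3 (35892105 to 35937445, minus strand). It had 44 and 57 counts in shControl, against 39 and 53 in shLmna, or 13.6 and 15.3 CPM against 15.4 and 14.4 CPM. The groups overlapped, and the log2 fold change was 0.04 (SE 0.240, 95% interval -0.49 to 0.58, edgeR adjusted p = 0.934), an interval that includes changes in both directions. Dcun1d3, which encodes a member that can hold cullins at membranes, lies on chromosome 7 (119852796 to 119896298, minus strand). It had 4 and 5 counts in shControl, against 4 and 2 in shLmna, and a difference was not detectable at this depth.

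**Figure D2:**
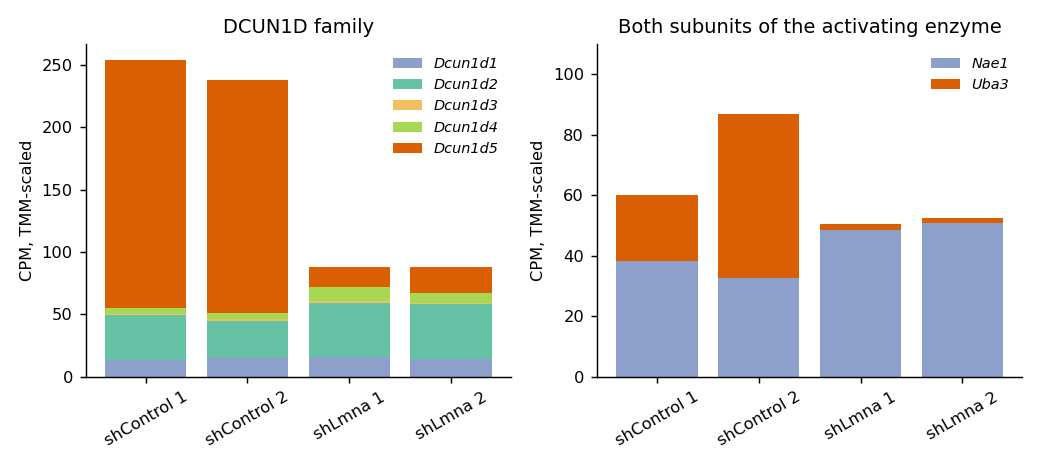
Stacked levels in CPM, scaled by TMM, of the 5 DCUN1D genes (left) and of both subunits of the activating enzyme (right) in each of the 4 libraries. Dcun1d5 makes up most of the left bars in shControl and little of them in shLmna, and Uba3 narrows to a thin cap on the right bars in shLmna.

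The makeup of the family is a description, since the difference that chose Dcun1d5 also enters its share and the summed level. Dcun1d5 gave 78.2% and 78.6% of all DCUN1D counts in shControl 1 and 2, and 18.5% and 23.8% in shLmna 1 and 2. The summed level of the 5 genes was 254 and 237 CPM in shControl and 87.8 and 88.3 CPM in shLmna. Without Dcun1d5, the other 4 genes summed to 55.4 and 50.9 CPM in shControl and 71.6 and 67.3 CPM in shLmna, so that these 4 together were higher in both shLmna libraries by far less than the level at which Dcun1d5 was lower. Dcun1d2 was the highest of the 4 in every library.

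The wider pathway was described with 4 lists of genes taken by role, of which 46 genes were in the matrix and 42 were tested. Of the 42, 4 were lower and 2 were higher at an edgeR adjusted p under 0.05. Over all tested genes, 9.74% were lower and 5.48% higher, so the counts of the wider pathway at this limit were near the background. An unadjusted p under 0.05 was found for 18 of the 42, beside 2750 of 9150 genes. The median log2 fold change of the 42 was 0.07. The genes that passed were spread over all 4 lists.

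Among the cullins and their RING partners, 9 were tested, 0 fell and 1 rose (9.74% and 5.48% over all tested genes), with a median log2 fold change of -0.03. Cul1, the scaffold of SCF ligases, had 437 and 595 counts in shControl, against 635 and 838 in shLmna, and rose by 0.70 on the log2 scale (SE 0.131, edgeR adjusted p = 0.00678). It did not pass without shLmna 1 (0.64, edgeR adjusted p = 0.0762). Of the others of this list, the 3 with the highest levels did not pass: Rnf7, the RING partner of CUL5, had a log2 fold change of -0.03, Cul7 of -0.30 and Rbx1, the RING partner of most other cullins, of -0.09. Cul4b was not tested, with 1 count in each shControl library and 0 in each shLmna library.

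The genes for NEDD8 removal held 11 tested members, of which 2 fell and 0 rose (against 9.74% and 5.48% of all genes), with a median log2 fold change of 0.06. Cops2, a subunit of the COP9 signalosome, had 71 and 155 counts in shControl 1 and 2 and 2 and 3 in shLmna 1 and 2. It fell in the edgeR test (log2 fold change -5.24, adjusted p = 0.000116), and its shLmna level was 2.49% of that in shControl, with a 95% interval of 0.800% to 5.89% from counting error alone. The other signalosome subunits did not pass, among them Myeov2 (0.16), Cops7a (-0.11) and Cops8 (0.29), which had the highest levels of the list. Uchl3, a hydrolase that trims ubiquitin and NEDD8, had 259 and 327 counts in shControl, against 86 and 226 in shLmna, and fell by 0.78 on the log2 scale (SE 0.229, edgeR adjusted p = 0.0458). The call was lost without shLmna 1 (-0.44, edgeR adjusted p = 0.252), with upper quartile scaling (edgeR adjusted p = 0.0508) and with DESeq2 (adjusted p = 0.0821), and without shLmna 2 the log2 fold change was -1.29. Senp8, the protease that matures NEDD8, had 7 counts in each shControl library and 1 and 0 in shLmna and was not tested.

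Among factors of cullin exchange and other binding or ligase factors, 7 were tested, 1 fell and 0 rose (all tested genes: 9.74% and 5.48%), with a median log2 fold change of 0.10. Rnf111, a ubiquitin ligase that has also been linked to NEDD8, had 27 and 49 counts in shControl, against 0 and 2 in shLmna. It fell in the edgeR test (adjusted p = 0.00120), and its shLmna level was 2.96% of that in shControl, with a 95% interval of 0.352% to 11.1% from counting error alone. The fitted log2 fold change of -4.92 depends on the library with 2 counts and was -8.09 without shLmna 2. Mdm2 (0.10), Nub1 (-0.34) and Cand2 (-0.66), the others of the list with the highest levels, did not pass. Fbxo11 was not tested, with 1 and 43 counts in shControl and none in shLmna.

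Among the cullin adaptors and substrate receptors, 15 were tested, 1 fell and 1 rose (beside 9.74% and 5.48% of all genes), with a median log2 fold change of 0.08. Dcaf7, a receptor of the CUL4 ligases, had 282 and 354 counts in shControl, against 76 and 121 in shLmna, and fell by 1.52 on the log2 scale (SE 0.152, edgeR adjusted p = 0.000160). Skp2, an F-box receptor for cell cycle inhibitors, had 95 and 152 counts in shControl, against 139 and 223 in shLmna, and rose by 0.72 (SE 0.190, edgeR adjusted p = 0.0308). The Skp2 call did not hold without shControl 1 (0.51, edgeR adjusted p = 0.0626), without shLmna 1 (0.79, edgeR adjusted p = 0.107) or without shLmna 2 (0.66, edgeR adjusted p = 0.198), nor with DESeq2 on all libraries (adjusted p = 0.130). The elongins Tceb2 (-0.37) and Tceb1 (0.08) and the CUL4 adaptor Ddb1 (0.38), with the highest levels of the list, did not pass. Btrc had 5 and 5 counts in shControl, against 2 and 9 in shLmna and was not tested.

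**Figure D3:**
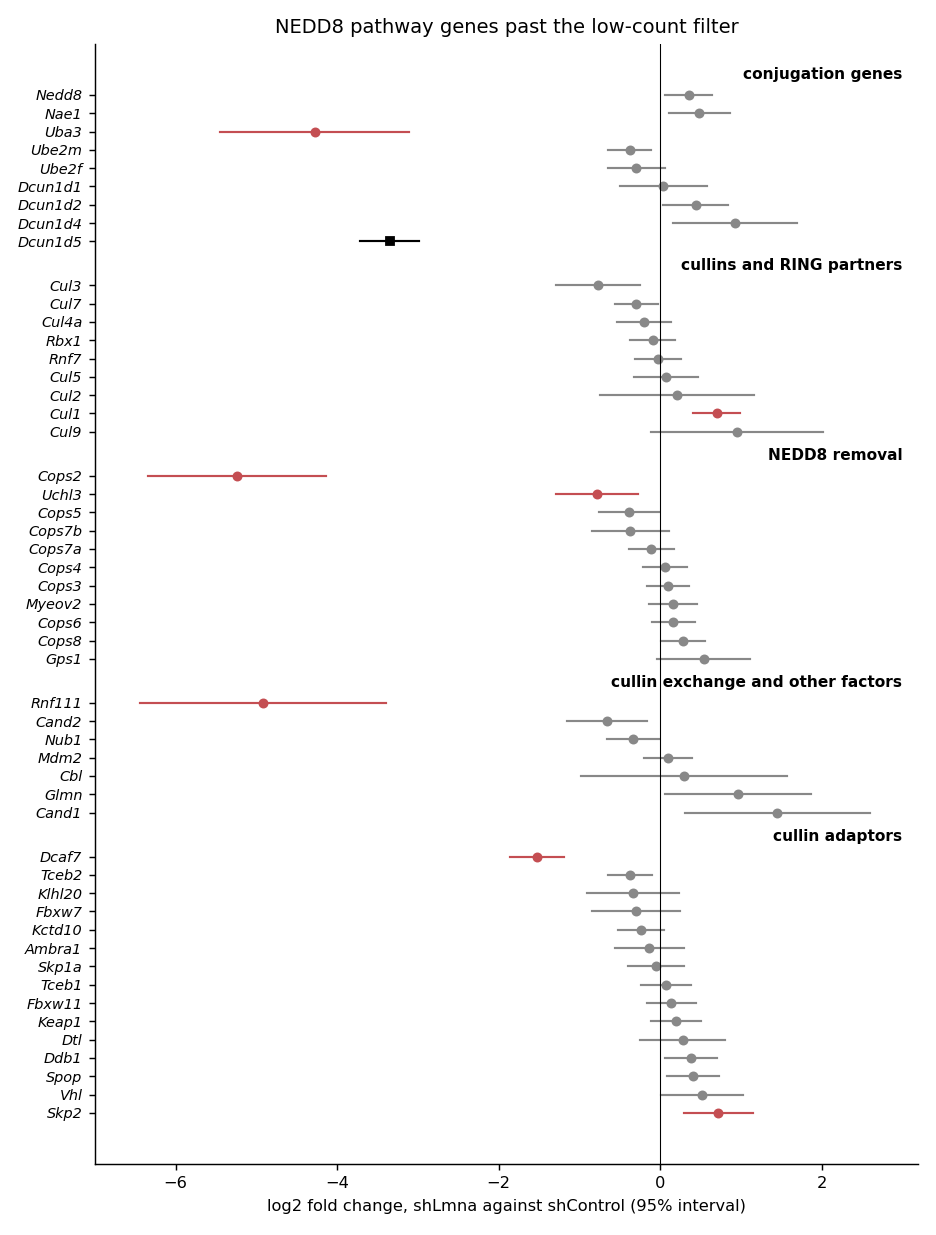
Log2 fold change of shLmna against shControl for the NEDD8 pathway genes past the low-count filter, grouped by role, with 95% intervals from the edgeR fit. Red marks genes with an adjusted p under 0.05, gray the others, and the black square Dcun1d5, which is given with no test; Dcun1d5, Uba3, Cops2 and Rnf111 lie below -3 and most other genes near 0.

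Genes with a GC-poor counted 3′ end were lower in shLmna more often than other genes. MARS-seq primes at the poly(A) tail and the authors counted reads near the 3′ end, so GC content was computed over the last 1000 transcript bases. Uba3 had 30.0% GC and Dcun1d5 34.2%, and these were the 2 members in the range of 36% or less. The other members were at 36.2% (Dcun1d1), 38.2% (Dcun1d3), 38.3% (Nae1), 40.9% (Dcun1d4), 42.5% (Ube2f), 47.9% (Dcun1d2), 51.4% (Nedd8) and 58.1% (Ube2m), against a median of 46.9% over tested genes.

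Of 672 tested genes at 36% GC or less, 39.0% were lower and 7.29% were higher at an edgeR adjusted p under 0.05, with a median log2 fold change of -0.57. Of 1934 genes over 36% and up to 42% GC, 12.4% were lower and 8.95% higher, with a median of 0.02. The lower and higher shares were 4.86% and 5.24% of 3150 genes over 42% and up to 50% GC (median 0.07), and 6.88% and 3.32% of 3344 genes over 50% GC (median -0.05). The shift of the median thus lay in the range of lowest GC. The share of lower genes in the next range, 12.4%, was also above those at higher GC. Dcun1d1, just above the lowest range, had a log2 fold change of 0.04. Cops2 (32.8%) and Rnf111 (34.7%) also lay at 36% or less, as did Cul3 (31.8%), which had a log2 fold change of -0.77 and did not pass (edgeR adjusted p = 0.0510), while Dcaf7 and Uchl3 were at 43.5%. An offset was also fitted in each library to the trend on GC content of log2 CPM values centred on each gene. With an offset that followed the robust trend, the log2 fold change was -3.18 for Dcun1d5 and -3.85 for Uba3. With an offset that followed the mean trend, which was chosen after seeing the data, it was -2.52 for Dcun1d5 and -2.72 for Uba3 (edgeR adjusted p = 0.00173). With that offset Nae1 also passed (0.78, edgeR adjusted p = 0.0190), and Dcun1d1 was at 0.63 and did not pass. The part of GC content in these differences was not tested. In the batch-corrected log2 values of the authors the differences were smaller, at -1.28 for Dcun1d5 and -0.72 for Uba3 (limma adjusted p = 0.00922).

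**Figure D4:**
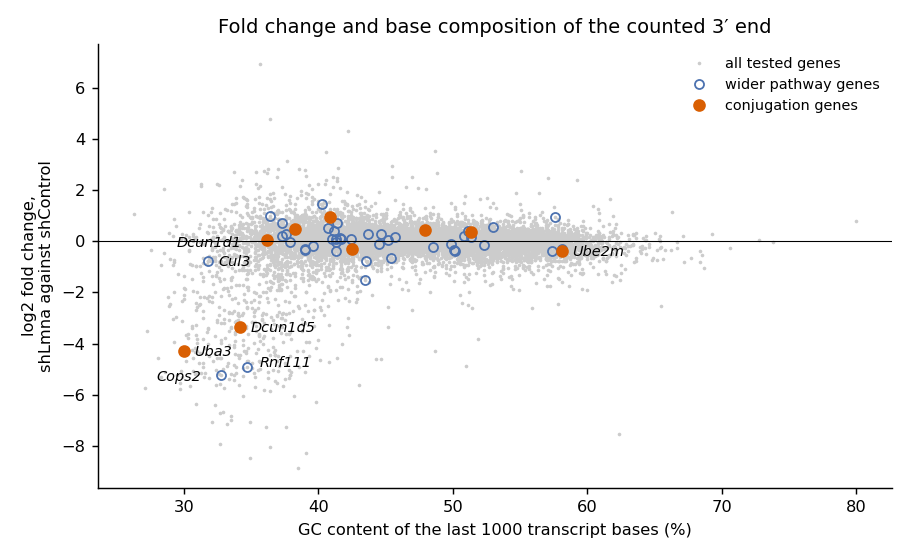
Log2 fold change of shLmna against shControl (vertical axis) by GC content of the last 1000 transcript bases in percent (horizontal axis), 1 point per tested gene. Gray points are all tested genes, open blue circles the wider pathway genes and filled orange circles the conjugation genes; Uba3, Dcun1d5, Cops2 and Rnf111 lie among the gray points that spread far below 0 at low GC.

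No other annotated gene overlapped the counted end of a member on either strand. Dcun1d5 has 4 annotated transcripts, and which of their 3′ ends was counted is not stated, so its GC content is that of the transcript linked to RefSeq. That end held 0 poly(A) signals (AATAAA or ATTAAA) in its last 1000 bases, that of Uba3 held 1 and that of Nae1 held 2.

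The tested genes whose profile over the 4 libraries was most like that of Dcun1d5 were Ggh, Lrrc58 and Zc4h2. Likeness was the Euclidean distance between log2 CPM values, computed with a prior count of 2 and centred on each gene. Ggh, which encodes a folate hydrolase, was at a distance of 0.130 and had 57 and 63 counts in shControl, against 2 and 5 in shLmna. Lrrc58 followed at a distance of 0.233, and its 30 and 40 counts in shControl compare with 1 and 2 in shLmna. Zc4h2, at a distance of 0.274, was counted 22 and 30 times in shControl against 0 and 1 times in shLmna. All 3 have far fewer counts than Dcun1d5, and their counted ends are at 35.7%, 30.6% and 37.9% GC. Their fitted log2 fold changes were -3.90, -4.27 and -5.23, against -3.35 for Dcun1d5. The prior count shrinks differences most where counts are low, so the distances understate these unlike values. The likeness describes 4 libraries that differ mainly by group.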

How the data were processed

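Bulk MARS-seq libraries of shControl and shLmna B16F10 cells (n = 2 each) were grouped by the sample titles. According to the study's methods, the authors trimmed reads with cutadapt, aligned them to mm10 (GRCm38) with STAR 2.4.2a and counted with HTSeq those in the final 1000 bases of each RefSeq gene or 100 bases beyond it, once duplicates of a molecular identifier had been marked. The deposited raw counts per gene symbol were the input here. Whether this matrix leaves out the marked duplicates is not given in the sources used here. Another deposited table gave a normalized signal per library, the gene count divided by a size factor. In each library 100% of its values were whole multiples of 1 step (tolerance 0.01), and the counts so recovered were an alternative; the matrix exceeded them by 1.08 to 1.09 times. The p-values the authors deposited there, with a direction per gene, hold their own comparison and were not used. A further table gave log2 values, normalized and batch-corrected by the authors. The batches are not named. The limma fit on these values had group as its only term, so its p-values take no account of the batch correction.

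Tests were run in edgeR 4.0.16 (R 4.3.3) by quasi-likelihood (TMM scaling, filterByExpr, group as the one term, two-sided), adjusted over 9150 genes by the Benjamini-Hochberg method, and the code was tested on simulated data. The 3 limits of the study are an adjusted p under 0.05, a log2 fold change over 1 in size and a mean normalized count over 5. The biological coefficient of variation was 0.126. Between replicates, chi-square over its degrees of freedom was 6.96 in shControl and 3.91 in shLmna, so replicates differed by more than sampling noise. Intervals from counts cover counting error only. The members and lists were chosen with earlier results of these data known. Named genes are all members and, from 4 lists, every gene with an adjusted p under 0.05 and up to 3 others with the highest mean CPM, with the 3 profiles nearest Dcun1d5. Cul3 and the genes that were not tested were named after their values were seen. GC content came from GENCODE M21 transcripts and was available for 99.5% of tested genes. Alternatives were other scalings, no filter, DESeq2 1.42.0, recovered counts, limma 3.58.1 on the log2 values, each library left out, a replicate block and 2 corrections for GC content. A fit with 1 library left in a group takes its replicate spread from the other group alone. Its p-values do not measure the spread of both groups.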

Additional observations from a re-analysis of the deposited data

How the results depend on the processing

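Over 14 alternatives, genes past the 3 limits numbered 538 lower and 161 higher in the reported fit. Limma on the batch-corrected log2 values, where the limit on the mean count was not applied, gave 28 and 2. Log2 fold changes were smaller in those values (Uba3 -0.72 against -4.28 as reported), so the limit on their size is harder to reach there. DESeq2 gave 391 and 66, and the correction by the mean trend of GC content, chosen after seeing the data, gave 427 and 402. The share of lower calls was 77.0% as reported, 51.5% with that mean-trend correction, 76.3% with the robust one and 93.3% with limma. Leaving out 1 library gave 387 to 744 lower and 60 to 232 higher calls. Uba3 kept its direction and passed in all 14, with adjusted p-values from 1.31e-32 to 0.0262, and the members that passed were 1 as reported, 2 with no filter, 2 with DESeq2, 2 with the mean-trend correction, 7 with limma and 1 to 4 without 1 library (4 without shControl 1). The wider genes that passed were 6 as reported, 11 with no filter, 22 with limma and 3 to 10 without 1 library (3 without shLmna 1, 10 without shControl 1). Over all tested genes, 9.74% were lower and 5.48% higher at an adjusted p under 0.05 in the reported fit. That share was not computed for the alternatives, so their counts of members and wider genes are not a result about the pathway. Dcun1d1 lay between -0.034 (without shControl 1) and 0.63 (mean-trend correction), and at most at 0.12 without 1 library. Dcun1d5 lay between -3.55 and -1.28. The cause of these differences was not tested. Same-numbered libraries share only a number (correlation of their deviations 0.0129, 2 pairs). With the replicate number as a block, 3 members (Uba3, Ube2m and Nedd8) and 12 wider genes passed at an adjusted p under 0.05 alone. Past the 3 limits, 605 lower and 209 higher calls were made. At these depths, genes with few counts, such as Dcun1d3 and Dcun1d4, have wide intervals or no test.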
